A study of Homo sapiens with 8 samples.

Results

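PEX5L, LCTL, MCHR2, GNG8, CDH6, SLC4A1, SLCO1A2 and FAS are 8 single genes whose transcripts were more abundant in the shALDH1A1 line of HT29 than in its CTRL. They were taken by gene symbol from the 18664 genes of the expression table, where they fill 62 of 84798 transcript rows. The choice rested on this same comparison, so the levels and fold changes below are a description of the genes and carry no test. All 8 passed the filter on low counts that left 7971 genes for the test. The name "largest rises" held for 7 of them, which stood at places 2 to 13 by log2 fold change among the 207 genes called higher, and not for FAS, which stood at place 191.

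The genes come from separate corners of cell biology. PEX5L is a relative of the peroxisomal import receptor PEX5 and, in neurons, an auxiliary subunit of HCN pacemaker channels. LCTL is a member of the klotho and lactase family of membrane proteins. MCHR2 is a receptor for melanin-concentrating hormone, a hypothalamic peptide, and acts through G proteins, to which the gamma subunit GNG8 belongs. CDH6 is a classical cadherin of cell to cell junctions, SLC4A1 is the anion exchanger of red blood cells, SLCO1A2 is an organic anion transporter, and FAS is a death receptor that recruits the adaptor FADD and the protease CASP8.

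RNA-seq was performed on 4 shALDH1A1 libraries and 4 CTRL libraries. Both groups were HT29 cells, a human colon cancer line, grown with 10% FBS. The shALDH1A1 cells stably carried a lentiviral short hairpin RNA against ALDH1A1, and which of the human hairpins was sequenced is not given in the sources used here. The CTRL cells appear in the labels as shControl, and the design text calls them parental. Whether replicates were separate cultures is not given either, so any p-value measures the spread between these libraries, which may be technical.

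The depth was 536575 to 1908803 gene counts in a shALDH1A1 library, against 291260 to 4137111 in a CTRL library, the lowest being CTRL replicate 2. ALDH1A1, the targeted gene, had 3, 1, 1 and 0 counts across shALDH1A1 libraries 1 to 4, against 1858, 83, 1870 and 1000 counts across CTRL libraries 1 to 4. The libraries differed widely in composition. The share of housekeeping genes was 0.0264 to 0.153% of counts with shALDH1A1 and 1.03 to 4.49% with CTRL. Of the defining genes of intestinal epithelium, CDX1 was at 0 counts in every shALDH1A1 library and at 0 or 1 in CTRL libraries. CDX2 had 3 counts in shALDH1A1 replicate 4 and 0 in the 7 other libraries. CDX1 and CDX2 are 2 of 16 listed colon epithelium markers, and others were counted, such as LGALS4 with 1, 30, 52 and 1 counts with shALDH1A1 and 149, 3, 403 and 113 with CTRL, and KRT8 with 9, 74, 108 and 4 counts with shALDH1A1 and 787, 15, 3025 and 534 with CTRL. The 8 markers of stomach chief and parietal cells in the table summed to 0 to 172 TPM (a level corrected for transcript length and library size) in shALDH1A1 libraries and 33200 to 406000 TPM in CTRL libraries. Their part in the results below was not tested. In such bulk samples, fewer cells of a type and less RNA per cell cannot be told apart.

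The 8 genes lie on 8 chromosomes of GRCh37, 6 on the minus strand and 2 on the plus strand. PEX5L spans chr3:179512746-179754841 and CDH6 spans chr5:31193793-31329253. MCHR2 spans chr6:100366395-100442123 and FAS spans chr10:90750414-90775542. SLCO1A2 spans chr12:21417534-21572528 and LCTL spans chr15:66839517-66858336. SLC4A1 spans chr17:42325758-42345509 and GNG8 spans chr19:47137210-47139798. CDH6 and FAS are the genes on the plus strand. GNG8 is the most compact, with 2.59 kb, and PEX5L the longest, with 242.0 kb.

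RefSeq promoter entries (GRCh38.p14) were found for 6 of the 8 genes, 10 entries in all. They are shown for 5 genes as a description of the letters, and the entries of FAS, the other gene with entries, are not printed. That these transcripts were abundant in the same libraries follows from how the 8 genes were chosen. Each line gives the 250 bases before a transcription start, 5′ to 3′ on the strand of the gene, and capitals mark a match on either strand to TATAAA (the TATA box), CCAAT (the box of that name), GGGCGG (the GC box), CACGTG (the E-box) or TGACTCA (letters bound by AP-1 factors). GGGCGG matches can overlap each other.

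PEX5L, chr3:180036938-180037187, minus strand: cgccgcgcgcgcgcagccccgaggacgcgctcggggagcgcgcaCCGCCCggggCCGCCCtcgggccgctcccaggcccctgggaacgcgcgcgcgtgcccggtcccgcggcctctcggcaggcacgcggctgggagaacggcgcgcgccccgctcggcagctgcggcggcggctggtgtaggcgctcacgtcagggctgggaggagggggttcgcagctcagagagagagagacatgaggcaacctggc

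LCTL, chr15:66565999-66566248, minus strand: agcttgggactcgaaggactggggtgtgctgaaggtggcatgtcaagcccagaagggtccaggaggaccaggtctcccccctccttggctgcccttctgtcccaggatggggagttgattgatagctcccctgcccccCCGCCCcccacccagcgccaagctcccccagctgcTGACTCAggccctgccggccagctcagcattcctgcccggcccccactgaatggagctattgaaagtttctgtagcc

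MCHR2, chr6:99994224-99994473, minus strand: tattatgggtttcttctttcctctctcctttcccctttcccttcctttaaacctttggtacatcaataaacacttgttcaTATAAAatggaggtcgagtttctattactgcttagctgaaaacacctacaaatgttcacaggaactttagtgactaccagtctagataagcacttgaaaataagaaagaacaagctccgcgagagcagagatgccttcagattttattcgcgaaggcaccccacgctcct

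GNG8, chr19:46636203-46636452, minus strand: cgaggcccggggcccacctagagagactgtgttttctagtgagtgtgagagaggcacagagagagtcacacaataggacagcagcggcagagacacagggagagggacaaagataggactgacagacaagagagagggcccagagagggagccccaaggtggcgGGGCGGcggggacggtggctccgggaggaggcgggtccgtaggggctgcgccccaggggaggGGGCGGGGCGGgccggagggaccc

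SLCO1A2, chr12:21403652-21403901, minus strand: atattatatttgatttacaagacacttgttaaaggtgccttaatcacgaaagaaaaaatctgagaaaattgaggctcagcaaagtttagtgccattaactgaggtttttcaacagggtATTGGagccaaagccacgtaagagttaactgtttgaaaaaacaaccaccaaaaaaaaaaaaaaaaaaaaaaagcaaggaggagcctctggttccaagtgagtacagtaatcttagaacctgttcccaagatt

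The G and C content of these stretches was 78.8% for PEX5L, 64% for LCTL, 40.8% for MCHR2, 67.6% for GNG8 and 34.8% for SLCO1A2, against a median of 58.0% over 35116 promoter entries. PEX5L and SLCO1A2 each have another entry that is not printed, and the one with a motif was chosen. These unprinted entries of PEX5L and SLCO1A2 hold none of the motifs, at 55.6% for PEX5L and 32.8% for SLCO1A2. The other unprinted entries are those of FAS, each with GGGCGG, at 62.8%, 65.2% and 62%. GGGCGG occurred in 6 of the 10 entries, belonging to 4 genes, and in 42.6% of all entries. TATAAA occurred for MCHR2 (10.7% of all entries), CCAAT for SLCO1A2 (32%) and TGACTCA for LCTL (4.2%). CACGTG occurred in 0 of the 10 entries and in 6.34% of all entries. No motif was common to all of them. A match of this kind is a description of the letters and not a measured site.

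MCHR2 and GNG8 belong to signalling through G proteins. MCHR2 had 6.97, 8.07, 8.35 and 35.20 TPM across shALDH1A1 libraries 1 to 4, and 0, 5.48, 0 and 0 TPM across CTRL libraries 1 to 4. These levels stand on 10.94, 9.40, 11.93 and 15 expected counts (reads shared out over transcripts by estimation) in shALDH1A1 cells, and on 0, 2, 0 and 0 in CTRL cells. The groups did not overlap, but the lowest shALDH1A1 level was 1.27 times that of CTRL replicate 2. The mean was 14.6 ± 13.7 TPM in shALDH1A1 cells and 1.37 ± 2.74 TPM in CTRL cells (SD, n = 4 each), and the log2 fold change from the edgeR fit was 5.86 (standard error 1.28).

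GNG8, a gamma subunit best known from olfactory and vomeronasal neurons of rodents, had 47.10, 32.73, 47.86 and 31.38 TPM across shALDH1A1 libraries 1 to 4. Across CTRL libraries 1 to 4 it had 5.14, 10.95, 1.74 and 0 TPM. Every shALDH1A1 library lay above every CTRL library, and the shALDH1A1 libraries spanned a factor of 1.53. The counts were 60.88, 31.37, 56.27 and 10.99 in shALDH1A1 cells and 6, 3.29, 1 and 0 in CTRL cells. The mean was 39.8 ± 8.93 TPM in shALDH1A1 cells and 4.46 ± 4.83 TPM in CTRL cells, at a log2 fold change of 5.39 (standard error 1.38).

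CDH6, the cadherin, first described in kidney, was the most abundant of the 8 genes in shALDH1A1 cells. It had 37.63, 47.50, 38.75 and 54.38 TPM across shALDH1A1 libraries 1 to 4, and 0.36, 7.01, 0.34 and 0.21 TPM across CTRL libraries 1 to 4. With 138.39, 129.77, 129.88 and 54.49 counts with shALDH1A1 and 6, 6, 7 and 3 in CTRL cells, it was also the best counted. The highest shALDH1A1 level was 1.45 times the lowest. CDH6 averaged 44.6 ± 7.89 TPM in shALDH1A1 cells and 1.98 ± 3.35 TPM in CTRL cells, and 0.303 ± 0.0814 TPM in the 3 CTRL libraries other than replicate 2. The log2 fold change was 5.25 (standard error 1.40).

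LCTL had 48.29, 21.71, 40.98 and 28.15 TPM across shALDH1A1 libraries 1 to 4, and 0, 10.93, 0.13 and 0 TPM across CTRL libraries 1 to 4. CTRL replicate 2 reached its level with 3 counts, since it is the shallowest library, and 1 count was found in the 3 other CTRL libraries together. In shALDH1A1 cells LCTL had 57, 19, 44 and 9 counts. The mean was 34.8 ± 12.1 TPM in shALDH1A1 cells and 2.76 ± 5.44 TPM in CTRL cells, at a log2 fold change of 6.01 (standard error 1.52).

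PEX5L was the gene with the lowest background. It had 12.67, 6.17, 4.1 and 8.94 TPM across shALDH1A1 libraries 1 to 4 and 0.10, 0, 0 and 0 TPM across CTRL libraries 1 to 4, CTRL replicate 2 included among the zeros. The counts were 49.34, 18, 14.61 and 9.68 in shALDH1A1 cells, and 2, 0, 0 and 0 in CTRL cells. It averaged 7.97 ± 3.71 TPM in shALDH1A1 cells and 0.025 ± 0.05 TPM in CTRL cells, and its log2 fold change of 7.15 (standard error 1.24) was second to that of LOC102723623, at 7.58.

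The transporters SLC4A1 and SLCO1A2 were of lower level. SLC4A1 had 11.92, 8.96, 8.38 and 15.84 TPM across shALDH1A1 libraries 1 to 4, and 0.42, 2.05, 0 and 0.13 TPM across CTRL libraries 1 to 4. Every shALDH1A1 library had at least 4.09 times the level of CTRL replicate 2, the highest CTRL library. SLC4A1 averaged 11.3 ± 3.42 TPM in shALDH1A1 cells and 0.65 ± 0.95 TPM in CTRL cells, at a log2 fold change of 5.16 (standard error 1.12). Its 24.99, 13.95, 16 and 9.03 counts with shALDH1A1 stand against 4, 1, 0 and 1 in CTRL cells.

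SLCO1A2, which takes up bile acids, steroid conjugates and drugs, had 2.86, 9.41, 6.63 and 6.50 TPM across shALDH1A1 libraries 1 to 4. Across CTRL libraries 1 to 4 it had 0.21, 2.81, 0.13 and 0 TPM. The lowest shALDH1A1 library, replicate 1, was level with CTRL replicate 2, at 1.02 times its value. The counts were 9.43, 23.06, 19.92 and 5.63 in shALDH1A1 cells and 3, 2.16, 3.02 and 0 in CTRL cells. The mean was 6.35 ± 2.69 TPM in shALDH1A1 cells and 0.788 ± 1.35 TPM in CTRL cells, at a log2 fold change of 4.86 (standard error 1.2).

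FAS differed from the others in that its groups overlapped in TPM. It had 15.11, 16.72, 4.98 and 47.16 TPM across shALDH1A1 libraries 1 to 4, and 2.45, 11.48, 4.26 and 0.80 TPM across CTRL libraries 1 to 4. The level in shALDH1A1 replicate 3 was 0.434 times that of CTRL replicate 2, while shALDH1A1 replicate 4 was 9.47 times shALDH1A1 replicate 3. In CPM (counts scaled by the TMM library sizes of the edgeR fit) the FAS groups were apart. The lowest shALDH1A1 value was 28.6, in replicate 3, and the highest CTRL value was 25.2, in replicate 2. On that scale the groups overlapped for LCTL and SLCO1A2 instead. There shALDH1A1 replicate 4 lay below CTRL replicate 2, at 8.97 against 9.46 for LCTL and 5.98 against 6.31 for SLCO1A2. The FAS counts were 47.58, 39.12, 14.30 and 40.46 in shALDH1A1 cells and 14.04, 8.42, 31.99 and 5.16 in CTRL cells. FAS averaged 21.0 ± 18.2 TPM in shALDH1A1 cells and 4.75 ± 4.71 TPM in CTRL cells, and its log2 fold change was 2.59 (standard error 1.02). It was no longer called without shALDH1A1 replicate 2 or 4, or without CTRL replicate 1, 3 or 4, nor with limma.

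**Figure D1:**
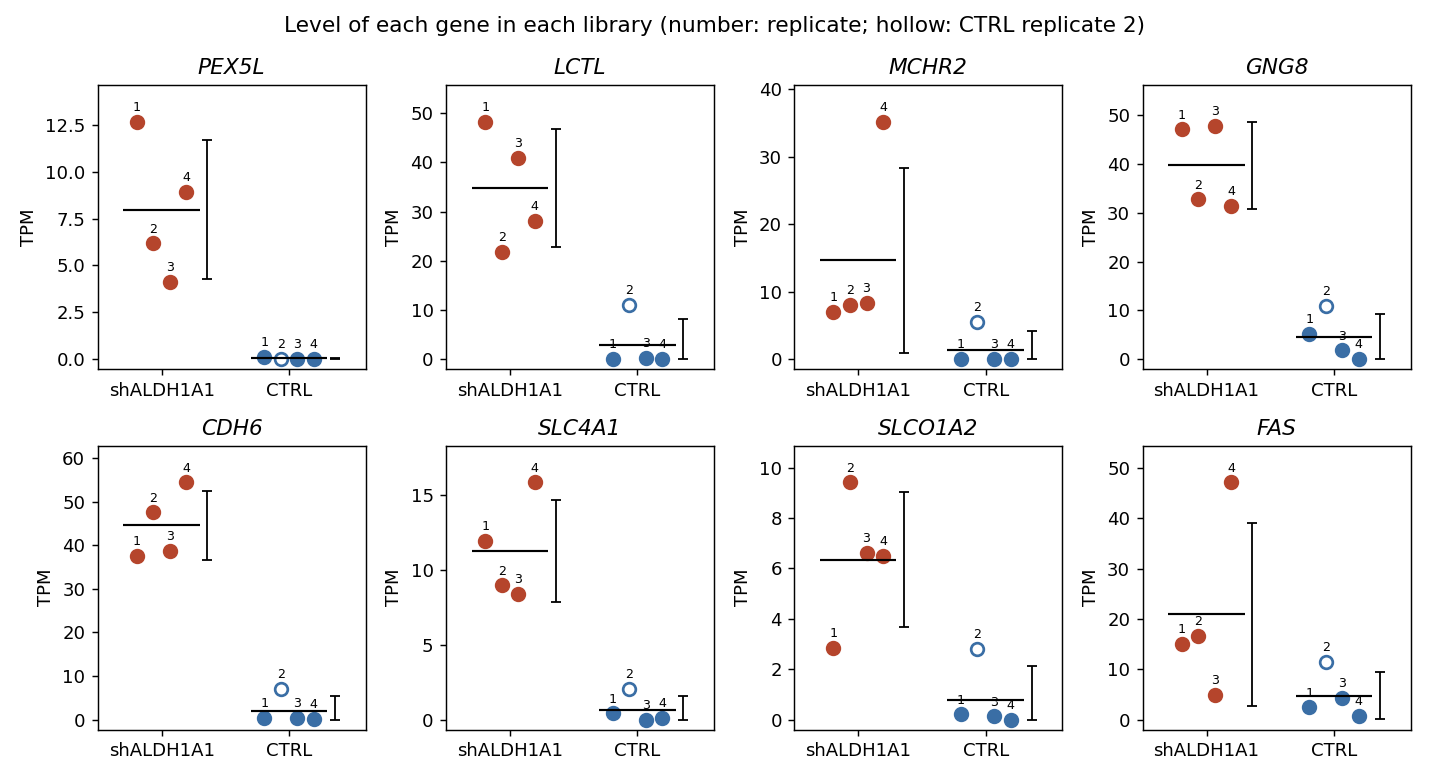
Level of each of the 8 genes (TPM, linear axes that differ between panels) in 4 shALDH1A1 libraries and 4 CTRL libraries, with the replicate number above each point, CTRL replicate 2 hollow, the mean as a line and the SD as a bar beside it, cut at 0. The groups are apart in 7 panels, and in the FAS panel shALDH1A1 replicate 3 (4.98 TPM) lies below CTRL replicate 2 (11.48 TPM).

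All 8 genes were called higher at an adjusted p under 0.05 in the edgeR fit across all genes, a call passed by 2.6% of the 7971 tested genes in this direction, and the 8 were chosen from those calls. A TPM above all CTRL libraries in each of the 4 shALDH1A1 libraries was found for 7 of the 8 genes, and for 8.22% of the tested genes that averaged 1 TPM or more. Just inside the stretch of large rises lay SLC4A1 at 5.16 and SLCO1A2 at 4.86, and just outside it lay DDX25 at 4.84, KIAA1210 at 4.82 and ABCD2 at 4.76. Within the stretch also stood SPATS1, GOLGA6L6, GOLGA6L22, FLG2 and AUNIP, of which the GOLGA6L genes have close paralogs that can share reads. Around FAS stood FAM217B at 2.63 and HELLS at 2.59. The fold changes lie above a median of -1.44 over all tested genes, and PEX5L was 8.59 and FAS 4.04 above that median. When the summed counts of 30 housekeeping genes served as library size, the median of all tested genes became 1.76 and 40.5% of them were called higher. On that scale the log2 fold changes ran from 6.01 for FAS to 11.32 for PEX5L.

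**Figure D2:**
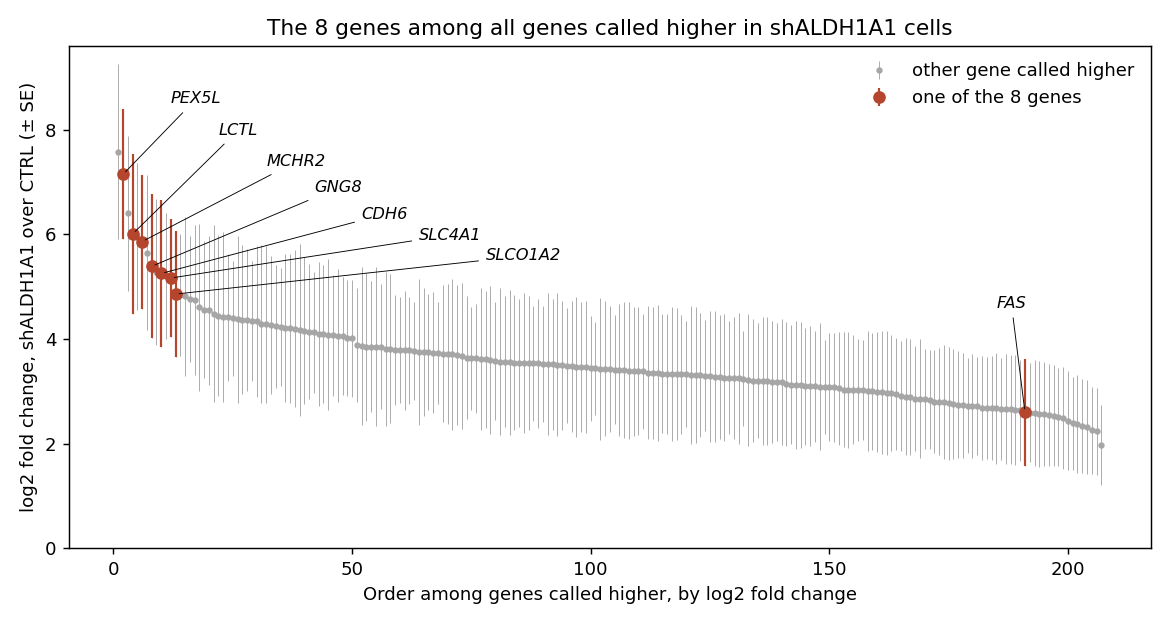
The 207 genes called higher in shALDH1A1 cells in order of log2 fold change (shALDH1A1 over CTRL, points) with the standard error as bars, and the 8 genes in red. PEX5L to SLCO1A2 hold places 2 to 13, from 7.15 to 4.86, and FAS holds place 191 at 2.59.

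CTRL replicate 2 held more of these transcripts than the other CTRL libraries. The 8 genes together took 0.0209, 0.0204, 0.0183 and 0.0288% of the counts across shALDH1A1 libraries 1 to 4, and 0.00151, 0.00888, 0.00106 and 0.000549% across CTRL libraries 1 to 4. CTRL replicate 2 was the highest CTRL library for 7 of the 8 genes, PEX5L being the exception. From summed counts over TMM-scaled library sizes, the ratio of shALDH1A1 to CTRL was 141 for LCTL (95% counting interval, 53.9 to 526), and 553 without CTRL replicate 2 (97.5 to 22000, on 1 CTRL count). For MCHR2 it was 103 (27 to 875). Without CTRL replicate 2 it was 67.1 with the 0 CTRL counts set at a floor of 3 over the group, and the lower 95% counting bound was 52.5. For CDH6 the ratio was 90.0 (58.7 to 145), and 121 (73.7 to 214) without CTRL replicate 2.

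Set against CTRL replicate 2 alone, the ratios were far smaller. They were 7.25 for CDH6 (3.31 to 19.9), 6.16 for SLC4A1 (1.07 to 247), 5.10 for GNG8 (1.71 to 25) and 4.14 for LCTL (1.39 to 20.3). The counting intervals reached below 1 for SLCO1A2 (2.79, 0.739 to 23.6), MCHR2 (2.26, 0.592 to 19.2) and FAS (1.70, 0.838 to 4.01). This arm is 1 library, so these intervals are no test between the groups. PEX5L was at least 2.95-fold higher against a floor of 3 counts. Intervals and floors cover counting error only, since reads are not independent molecules. Over the complete CTRL group, PEX5L had a ratio of 202 (54.2 to 1690), GNG8 of 69.7 (36.9 to 148), SLC4A1 of 46.7 (20.3 to 132), SLCO1A2 of 31.8 (15.1 to 77) and FAS of 10.5 (7.67 to 14.4).

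In the order of mean levels, shALDH1A1 cells ran from CDH6 through GNG8, LCTL, FAS, MCHR2, SLC4A1 and PEX5L to SLCO1A2, and CTRL cells from FAS through GNG8, LCTL, CDH6, MCHR2, SLCO1A2 and SLC4A1 to PEX5L. In both groups every neighbour in these orders overlapped the next in range, and the differences between neighbours were smaller than the larger of their SDs. The ends of the shALDH1A1 order did not overlap, since the lowest CDH6 level was 37.63 TPM and the highest SLCO1A2 level was 9.41 TPM. In TPM the libraries did not rank alike from gene to gene. MCHR2, CDH6, SLC4A1 and FAS were highest in shALDH1A1 replicate 4, PEX5L and LCTL in replicate 1, GNG8 in replicate 3 and SLCO1A2 in replicate 2. The ranks were more alike in CPM. There LCTL, MCHR2, GNG8, CDH6, SLC4A1 and SLCO1A2 were highest in shALDH1A1 replicate 3, PEX5L in replicate 1 and FAS in replicate 2. Replicate 4 was the lowest shALDH1A1 library in CPM for CDH6 (53.8) and SLC4A1 (8.97), which it led in TPM.

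The rows of the table split each gene into RefSeq transcripts, and the genes differed in how their counts fell on these rows. For MCHR2 (NM_001040179.2), CDH6 (NM_004932.4), SLC4A1 (NM_000342.4) and GNG8 (XM_017027504.2) a single row held all counts with shALDH1A1. In CTRL cells that GNG8 row held 73.3% of 10.29 counts. Another GNG8 row, XM_017027505.1, had 4.41 TPM on 1.75 counts in CTRL replicate 1 and 1.74 TPM on 1 count in CTRL replicate 3. It stood at 0 in every shALDH1A1 library. For LCTL, NM_001278562.2 held 99.2%, and for SLCO1A2, NM_134431.3 held 98.3%.

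The FAS counts lay on 1 transcript row in shALDH1A1 cells and on 6 in CTRL cells. In shALDH1A1 cells all 141.46 FAS counts lay on XM_006717819.3, a predicted transcript, whereas in CTRL cells this row held 26.8% of 59.61 counts. That row had 47.58, 39.12, 14.30 and 40.46 counts across shALDH1A1 libraries 1 to 4 and 2.96, 8.42, 1.46 and 3.13 counts across CTRL libraries 1 to 4. As a share of the FAS counts of a library, the row held 100% in each shALDH1A1 library, against 21.1%, 100%, 4.56% and 60.7% across CTRL libraries 1 to 4. The pooled share in CTRL cells depended on single libraries, at 52.5% of 27.62 counts without replicate 3 and 14.7% of 51.19 counts without replicate 2, values that were added after seeing the data. Most of the other rows had counts in a single CTRL library, so no difference in row use between the groups was tested. The other CTRL counts lay on XM_011539766.2 (24.93 in replicate 3), XM_011539765.2 (8.21 in replicate 1 and 2.03 in replicate 4), NM_152871.4 (2.87 in replicate 1), NM_001320619.2 (3.36 in replicate 3) and NM_000043.6 (2.24 in replicate 3). Each of these 5 rows stood at 0 in every shALDH1A1 library. Fitted as a row of its own, XM_006717819.3 showed a log2 fold change of 3.07 (standard error 1.39) and was not called.

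PEX5L showed the opposite pattern, with its counts scattered over many rows. In shALDH1A1 cells 24 of its 36 rows had counts, with 12, 6, 5 and 4 rows in replicates 1 to 4, and the fullest row of a library held 17 to 37.5% of the gene's counts. Of the 25 rows with counts in any library, 22 had them in a single library and 3 in a pair of libraries. No row kept its counts across all shALDH1A1 libraries, so the gene's level is a sum over rows that were not the same from library to library, and no row passed the low-count filter. With rows fitted separately, 307 of 8064 rows (3.81%) were called higher, among them the leading rows of LCTL, MCHR2, SLC4A1, CDH6 and GNG8, while that of SLCO1A2 (3.21, standard error 1.29) was not called.

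**Figure D3:**
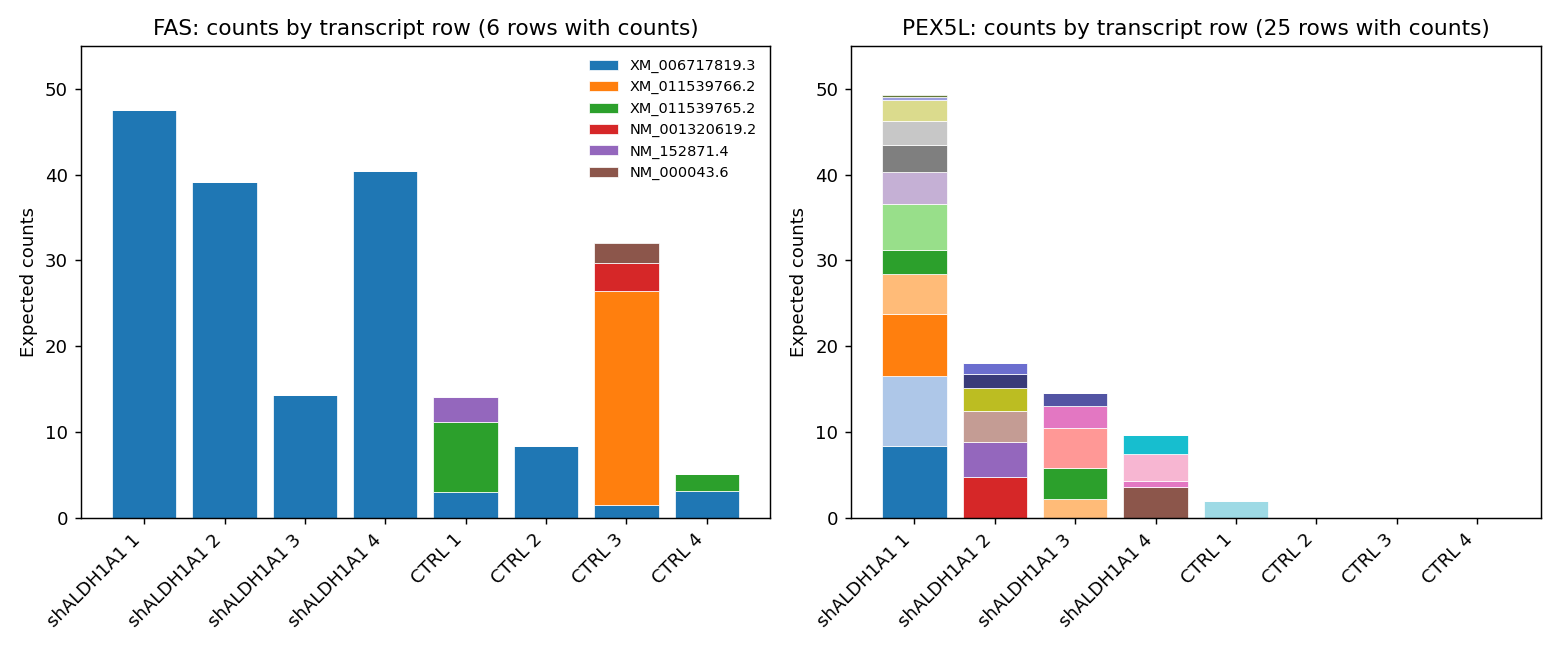
Expected counts of FAS (left) and PEX5L (right) in each library, 4 shALDH1A1 and 4 CTRL, with each colour a transcript row of the table and the rows of PEX5L unnamed. FAS counts with shALDH1A1 lie on XM_006717819.3 alone, and those of PEX5L are split over 12, 6, 5 and 4 rows.

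Transcripts of 5 of the 8 genes held sequence like that of the 7SL RNA, the ancestor of the Alu repeats that fill much of human intronic and untranslated sequence. The longest annotated coding transcript of each gene was compared with RN7SL2 and RN7SL3. LCTL had 275 such bases, CDH6 192, SLC4A1 115, MCHR2 111 and PEX5L 56, all of them in the 3′ untranslated region and 0 in coding sequence. GNG8, SLCO1A2 and FAS had 0. The predicted rows of GNG8 and FAS that carried the counts were not searched.

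At least 50 such bases were found in 38.4% of the tested genes with a transcript, in 73.9% of those called higher, in 11.5% of those called lower and in 50.9% of those that did not pass. Median transcript length was 4207 bases in genes called higher, 2934 in genes called lower and 3983 in all tested genes, so length also differed. Genes with this sequence took 85.0, 82.3, 83.8 and 78.5% of the counts across shALDH1A1 libraries 1 to 4, and 21.8, 70.3, 13.4 and 12.3% across CTRL libraries 1 to 4. CTRL replicate 2 thus lay nearest the shALDH1A1 libraries in this share, as it did in the share of the 8 genes. The part of repeat sequence in the levels of these genes was not tested.

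Other genes overlap 6 of the 8 loci, and whether the counting used strand is not given in the sources used here, so reads of overlapping genes may not be told apart. SLCO1A2 contains IAPP, the islet amyloid polypeptide gene, on the opposite strand. IAPP, picked after its values were seen, had 95.81, 93.55, 61.14 and 27.68 counts across shALDH1A1 libraries 1 to 4 and 3.16, 16.67, 3.43 and 1 counts across CTRL libraries 1 to 4. Every shALDH1A1 library had more IAPP counts than every CTRL library, as for SLCO1A2, but IAPP did not pass the edgeR test (3.07 on the log2 scale, standard error 1.36, adjusted p = 0.0739). ACTA2, the smooth muscle actin gene that overlaps 683 bases of FAS on the opposite strand, went the other way, with 0, 1, 44 and 2 counts with shALDH1A1 and 5459, 27, 656 and 149 counts with CTRL. USP13, which overlaps PEX5L, had 0, 1, 1 and 2 counts with shALDH1A1 and 19, 1, 24 and 3 in CTRL cells. ZWILCH, which overlaps LCTL, had 0, 0, 1 and 0 counts with shALDH1A1 and 17, 0, 18 and 3 in CTRL cells.

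Over the 8 libraries, log2(TPM + 1) of the 8 genes ran together, with Pearson's r between pairs of 0.732 (FAS and PEX5L) to 0.986 (CDH6 and SLC4A1). These values describe 8 libraries that fall into 2 groups and share depth and composition, and they were not tested. Among all tested genes, the patterns most like that of LCTL were TRIM14 (r = 0.997), NLRP10 (0.996) and GRK3 (0.996), and 737 genes had an r over 0.95 with it. For CDH6 they included MGAT4C (0.992) and SUGT1 (0.991), for MCHR2 FAM227A (0.995), CNTNAP3 (0.992) and AMER2 (0.992), and for SLC4A1 SUGT1 (0.995), CDH6 (0.986) and DENND4A (0.986). For GNG8 they were GABPB1 (0.983), CYB5RL (0.981) and LPP (0.981), for SLCO1A2 PLAAT3 (0.986), BVES (0.986) and ZNF845 (0.985), and for FAS FNIP2 (0.988), WRN (0.985) and SUMF1 (0.983). PEX5L had the fewest like it, 2 genes with an r over 0.95, FAM172A (0.977) and ZNF708 (0.958), followed by GDPGP1 (0.948).

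The pathway partners of the 8 genes were taken from lists of their families and complexes. Of 172 partner genes listed, 168 were in the table and 68 were tested, of which 3 rose, 15 fell and 50 did not pass. Their median log2 fold change was -1.2, beside -1.44 over all tested genes. The calls depend on the scale, since 28 of the 68 rose and 3 (PEX7, SLC4A2 and GADD45A) fell with the housekeeping library size. At that scale 40.5% of all tested genes were called higher and 5.41% lower, while 33% were called lower with TMM factors.

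Of the death receptor genes around FAS, 1 of 17 tested rose and 3 fell, where 2.60% of all tested genes rose and 33.0% fell. These counts depended on the scale and the tool, with 7 higher and 0 lower on the housekeeping scale, 4 higher and 8 lower by DESeq2, and 3 higher and 8 lower by limma. CASP8, the initiator protease that FAS engages, had 719.66, 384.62, 628.67 and 124.07 counts across shALDH1A1 libraries 1 to 4 and 21.33, 36.92, 62.26 and 7.14 counts across CTRL libraries 1 to 4. Every shALDH1A1 library lay above every CTRL library, and CASP8 averaged 786 ± 146 TPM in shALDH1A1 cells and 53.4 ± 95.2 TPM in CTRL cells. Its rise was 4.37 on the log2 scale (standard error 1.6, adjusted p = 0.0338 from edgeR), and it did not pass without shALDH1A1 replicate 1, 2 or 3 (adjusted p = 0.0603, 0.0573 and 0.0628) or without CTRL replicate 1 or 3 (adjusted p = 0.0880 and 0.0884).

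CFLAR, which blocks CASP8 at the receptor, averaged 3440 ± 2820 TPM in shALDH1A1 cells and 586 ± 1070 TPM in CTRL cells, but did not pass, at 2.92 on the log2 scale (adjusted p = 0.261 from edgeR). It was called higher with DESeq2 (adjusted p = 0.0223), with limma at either pseudocount (adjusted p = 0.0211 and 0.049) and in the edgeR fit without CTRL replicate 2 (4.91, adjusted p = 6.88e-05). FADD, the adaptor between FAS and CASP8, had 0, 0, 1 and 0 counts with shALDH1A1 and 26, 0, 47 and 14 in CTRL cells. FASLG, the ligand of FAS, had 0 counts with shALDH1A1 and 0, 0, 11 and 0 in CTRL cells. Both were too low for the test. Within 1 pathway the receptor and protease were counted in every shALDH1A1 library, where the adaptor and ligand were nearly uncounted. The ligand was also uncounted in CTRL libraries other than replicate 3, and the adaptor in CTRL replicate 2. BAK1, a pore former of mitochondrial apoptosis, and MCL1, an inhibitor of it, both fell. BAK1 fell by 2.84 and MCL1 fell by 3.51 on the log2 scale (adjusted p = 0.0207 and 0.0232 from edgeR). BAK1 did not pass without shALDH1A1 replicate 1 or 4 or CTRL replicate 1, and MCL1 did not pass without shALDH1A1 replicate 1 or 4.

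FAS is also a target of p53, and of 9 tested p53 targets 0 rose and 2 fell with edgeR (1 rose at an unadjusted p under 0.05, and by the other tools 3 by DESeq2 and 3 by limma). Over all tested genes 2.6% rose and 33% fell with edgeR. GADD45A, a stress response gene, had 0, 1, 0 and 0 counts with shALDH1A1 and 59, 2, 208 and 62 counts with CTRL, and fell by 5.73 on the log2 scale (adjusted p = 0.00119 from edgeR). SESN1, a sestrin, fell by 5.24 (adjusted p = 0.00215). TIGAR, a fructose bisphosphatase, had 36.68, 40.02, 47.71 and 43 counts with shALDH1A1 and 29, 12.03, 15 and 6 in CTRL cells, and did not pass, at a log2 fold change of 2.51 (adjusted p = 0.0695). TIGAR was called higher with median-of-ratios factors, DESeq2, limma on log2(TPM + 1), no filter, the housekeeping scale and without CTRL replicate 2 (adjusted p = 0.025, 0.00181, 0.031, 0.0313, 0.0127 and 0.000727). On the housekeeping scale 5 of the 9 rose and 1 fell, where 40.5% of all tested genes rose and 5.41% fell.

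Around MCHR2 and GNG8, the ligand PMCH had 2, 4, 0 and 6 counts across shALDH1A1 libraries 1 to 4 and 0 counts in all CTRL libraries, too few for a test. MCHR1, the other receptor of the hormone, had 0 counts in all 8 libraries. Of 7 tested genes of the alpha subunits and phospholipases that such receptors use, 0 rose and 0 fell with edgeR (0 at an unadjusted p under 0.05), while 3 fell with DESeq2 and 1 with limma. GNA11, GNAQ and GNAI2 had log2 fold changes of -1.91, -1.73 and -1.90 (adjusted p = 0.114, 0.137 and 0.148), and on the housekeeping scale their values were 0.92, 1.65 and 0.39. These 3 were called lower by DESeq2 and without CTRL replicate 2 or 4. Of 11 tested beta and gamma subunits 0 rose and 4 fell with edgeR (1 rose at an unadjusted p under 0.05, and by the other tools 2 by DESeq2 and 1 by limma). The share that fell was near that of all tested genes, of which 33% fell and 2.6% rose. Subunits that fell included GNG2 (-5.53, adjusted p = 0.00125), GNG11 (-4.06, adjusted p = 0.00858) and GNB1 (-3.06, adjusted p = 0.0432), whose products pair as beta and gamma dimers. GNB1 had 3, 13, 16 and 1 counts with shALDH1A1 and 737, 19, 632 and 368 in CTRL cells. On the housekeeping scale 3 of the 11 rose and 0 fell, where 40.5% of all tested genes rose and 5.41% fell. GNB1 did not pass without shALDH1A1 replicate 1, 2 or 4 or CTRL replicate 1 or 3 (largest adjusted p = 0.136).

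Of 7 tested cadherins and catenins other than CDH6, 0 rose and 1 fell with edgeR (2 rose at an unadjusted p under 0.05, and by the other tools 2 by DESeq2 and 2 by limma). Over all tested genes 2.6% rose and 33% fell with edgeR. CDH3, the placental cadherin, had 530.41, 208.03, 329.92 and 71.66 counts with shALDH1A1 and 3.01, 33.42, 10 and 5.91 in CTRL cells. The groups did not overlap in these counts, which are not corrected for depth. The log2 fold change of CDH3, 3.90, missed the threshold (adjusted p = 0.0503 from edgeR). CDH3 was called higher without CTRL replicate 2 (7.32, adjusted p = 1.82e-06), without CTRL replicate 4 or shALDH1A1 replicate 4, with no filter on low counts, with median-of-ratios factors, on the housekeeping scale, with DESeq2 and with limma at either pseudocount (largest adjusted p = 0.0441). CDH1, the epithelial cadherin, had 0, 3, 2 and 8 counts with shALDH1A1 and 37, 3, 465 and 26 in CTRL cells (log2 fold change -2.53, adjusted p = 0.0565). CDH1 was called lower with DESeq2 (adjusted p = 0.00145) and without CTRL replicate 2 or 4 (adjusted p = 0.00522 and 0.0136), but its value was 0.58 on the housekeeping scale. CTNND1, a catenin that binds cadherin tails, fell by 4.39 on the log2 scale (adjusted p = 0.0177 from edgeR), and did not pass without shALDH1A1 replicate 1, 2 or 4. CTNNB1, the beta catenin, was at -1.38 on the log2 scale (adjusted p = 0.235), with a call in the same direction by DESeq2 (adjusted p = 0.00906) and a value of 2.29 on the housekeeping scale.

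SLC4A1 works with ankyrin and other proteins of the red cell membrane, and ANK1 had 2, 0, 2 and 0 counts with shALDH1A1 and 2, 1, 5 and 7 in CTRL cells. Of the globin genes, HBB had 0, 0, 147 and 113 counts across shALDH1A1 libraries 1 to 4 and 628, 0, 319 and 26 counts across CTRL libraries 1 to 4. SLC4A1 had 24.99, 13.95, 16 and 9.03 counts with shALDH1A1 and 4, 1, 0 and 1 with CTRL. The part of red cells in the level of SLC4A1 was not tested. The 12 red cell markers summed to 0.85 to 6220 TPM in shALDH1A1 libraries and 7.32 to 3190 TPM in CTRL libraries, and AHSP and KLF1 had at most 1 count in any library. Of 6 tested genes of the SLC4 list 1 rose and 1 fell with edgeR, where 2.6% of all tested genes rose and 33% fell. SLC4A5, a bicarbonate transporter, rose by 3.08 on the log2 scale (adjusted p = 0.0237 from edgeR), but not without CTRL replicate 1, 3 or 4 (adjusted p = 0.140, 0.117 and 0.0809). SLC4A2, the anion exchanger of most tissues, had 0, 2, 0 and 0 counts with shALDH1A1 and 284, 9, 1308.01 and 85 in CTRL cells and fell by 6.71 (adjusted p = 0.0011 from edgeR). CA2, a carbonic anhydrase, was at -2.93 on the log2 scale (adjusted p = 0.0976), and was called lower by DESeq2 (adjusted p = 0.00041) and without CTRL replicate 2 (adjusted p = 7.91e-05).

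Of the organic anion transporters, 2 were tested beside SLCO1A2. SLCO5A1 had 6, 9, 11 and 5 counts with shALDH1A1 and 2, 3, 2 and 0 in CTRL cells and rose by 3.89 on the log2 scale (adjusted p = 0.00769 from edgeR). It did not pass without CTRL replicate 1, 3 or 4 (adjusted p = 0.111, 0.105 and 0.0818) nor with limma. SLCO3A1 was at 0.02 on the log2 scale (adjusted p = 0.98), and was called higher on the housekeeping scale alone (3.95, adjusted p = 0.014).

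Of 3 tested genes of the klotho and endocrine FGF list around LCTL, 0 rose and 1 fell with edgeR (0 rose at an unadjusted p under 0.05, with DESeq2 or with limma). KLB, the beta klotho coreceptor, had 15.43, 27.54, 29.64 and 24.84 counts with shALDH1A1 and 1.51, 23.19, 6.94 and 0 in CTRL cells (log2 fold change 1.21, adjusted p = 0.418 from edgeR). KLB was called higher on the housekeeping scale (3.84, adjusted p = 0.0337) and without CTRL replicate 2 (5.20, adjusted p = 7.92e-05). FGFR2 was also at 1.21 (adjusted p = 0.225), and was called higher on the housekeeping scale (4.56, adjusted p = 0.0126), GBA2, a glucosylceramidase, fell by 4.01 (adjusted p = 0.0111), and FGFR4 was not tested. GBA2 did not pass without shALDH1A1 replicate 1 or 4 (adjusted p = 0.0519 and 0.0578). Of 7 tested genes of peroxisomal import and HCN channels around PEX5L, 0 rose and 3 fell with edgeR (0 rose at an unadjusted p under 0.05, and by the other tools 2 by DESeq2 and 2 by limma). Beside the klotho and peroxisomal lists, 2.6% of all tested genes rose and 33% fell. PEX7, an import receptor, had 0 counts with shALDH1A1 and 47, 4, 60 and 51 in CTRL cells (adjusted p = 0.000724 from edgeR). PEX16 fell by 4.51 (adjusted p = 0.00188) and PEX19 by 2.76 (adjusted p = 0.0485), both needed to build peroxisomal membranes, and PEX19 did not pass without shALDH1A1 replicate 1, 2 or 4 or CTRL replicate 1 or 3. PEX5 itself had 0, 0, 0 and 2 counts with shALDH1A1 and 36, 0, 78.99 and 33 in CTRL cells and was not tested.

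**Figure D4:**
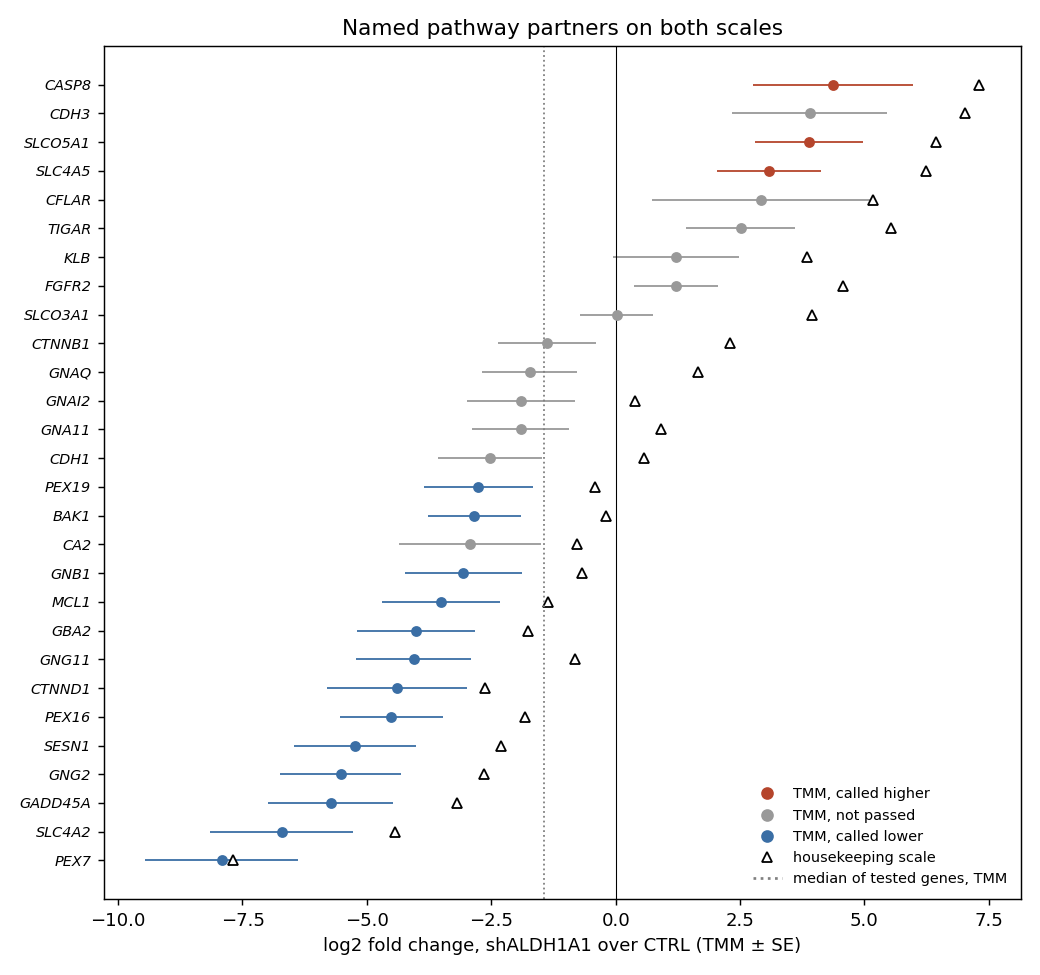
log2 fold change (shALDH1A1 over CTRL) of the named partner genes that were tested, as points with standard errors from the fit with TMM factors and as open triangles from the housekeeping scale, with the TMM median of all tested genes dotted. CASP8, SLCO5A1 and SLC4A5 were called higher with TMM factors, at 4.37, 3.89 and 3.08, and every triangle lies to the right of its point. PEX7 had 0 counts with shALDH1A1, so its plotted value depends on the prior count of the fit.

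Genes of the cell types in which the 8 genes are best known were also inspected. The 12 neuron markers summed to 7.28 to 121 TPM in shALDH1A1 libraries and 5.03 to 36 TPM in CTRL libraries, with 3 to 7 of 12 counted in a shALDH1A1 library and 5 to 10 in a CTRL library. The 4 hypothalamic peptide genes in the table summed to 0 to 19.9 TPM in shALDH1A1 libraries and 0 to 176 TPM in CTRL libraries. The 12 leukocyte markers summed to 2930 to 3820 TPM in shALDH1A1 libraries and 130 to 1240 TPM in CTRL libraries. Of these, 1 to 7 were counted in a shALDH1A1 library and 7 to 12 in a CTRL library. LYZ alone gave 1702.93, 1590.38, 1679.38 and 447.68 counts across shALDH1A1 libraries 1 to 4, and 577.89, 155.73, 781.27 and 134.45 across CTRL libraries 1 to 4. PTPRC went the other way, with 0, 2, 2 and 0 counts with shALDH1A1 and 71, 1, 175 and 12 with CTRL. CD2 and CSF1R were at 0 with shALDH1A1, and had 29, 1, 76 and 6 and 53, 2, 79 and 17 counts with CTRL. The 16 colon epithelium markers summed to 55.5 to 918 TPM in shALDH1A1 libraries and 271 to 1490 TPM in CTRL libraries, and EPCAM had 0, 9, 2 and 0 counts with shALDH1A1 and 48, 1, 190 and 25 in CTRL cells. The part of these cell types in the levels of the 8 genes was not tested.

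**Figure D5:**
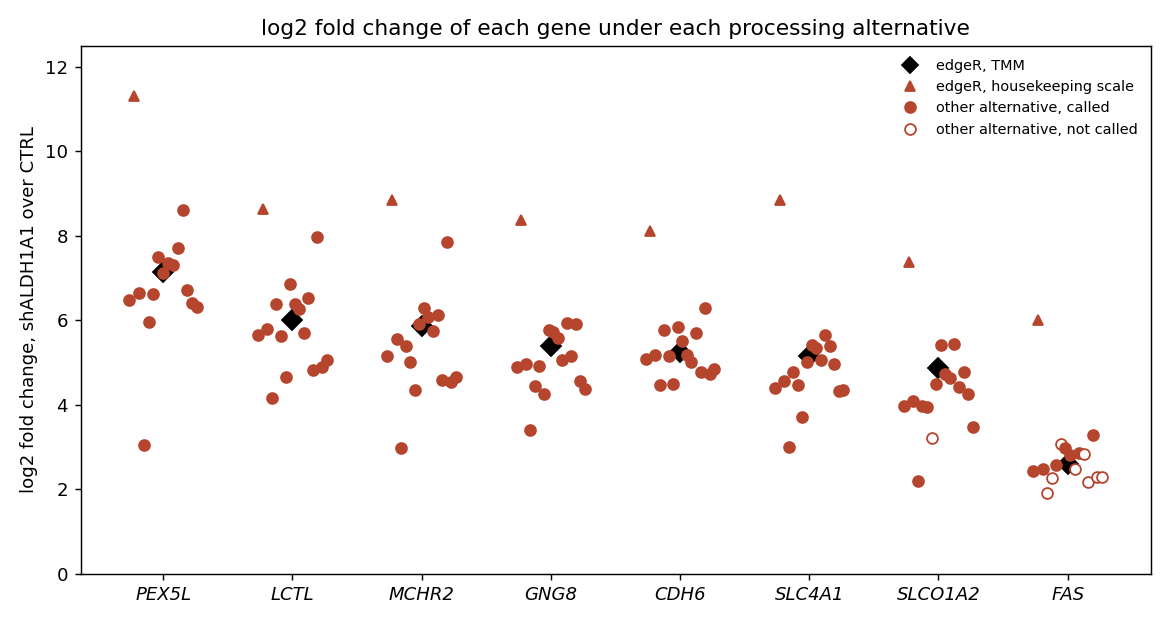
log2 fold change (shALDH1A1 over CTRL) of each of the 8 genes under the edgeR fit with TMM factors (diamond), the housekeeping scale (triangle) and the other alternatives (circles, open where the gene was not called). All values are above 0, they reach from 3.04 to 11.32 for PEX5L, and open circles are those of FAS in 8 alternatives and SLCO1A2 in 1.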

How the data were processed

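RNA-seq was performed in 4 shALDH1A1 and 4 CTRL HT29 libraries. The authors deposited expected counts per RefSeq transcript, which are not normalized. They also deposited TPM per transcript. The study's methods give HISAT on hg19 and then RSEM as their source, whereas GRCh38.p13 and the aligners Bowtie2 and BWA stand in the submitters' processing notes.

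Rows of 1 gene were added up and the sums rounded for edgeR 4.0.16 in R 4.3.3. Its two-sided quasi-likelihood test followed filterByExpr (minimum count 10, minimum total count 15) and TMM scaling, with Benjamini-Hochberg adjustment over 7971 genes and a threshold of 0.05. Standard errors were taken as the size of the log2 fold change over the root of the F statistic. DESeq2 1.42.0, limma 3.58.1 on log2(TPM + 1) and log2(TPM + 0.1), other library sizes, separate transcript rows, a replicate block and the loss of each library were alternatives. Counts totalled 291260 to 4137111 per library, and the biological coefficient of variation was 0.923.

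The 8 genes and the gene lists were chosen with earlier results of these data known. Named genes were the 8, fixed partners, up to 3 genes of the smallest p per list, the 3 most correlated genes per member and neighbours in the order of fold change. Some genes that this rule names are not reported here. Coordinates are GENCODE on GRCh37. BLAST 2.17.0 (e-value 0.001, at least 50 bases) searched for 7SL-like sequence, an analysis made after the data had been seen.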

Additional observations from a re-analysis of the deposited data

Results flagged for a closer look

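Among 16 groups of 4 libraries (8 genes in each of the shALDH1A1 and CTRL groups), 6 held a library whose TPM lay far from the other 3 by Dixon's measure. The usual chance rate of about 1 in 20 groups does not hold for counts this sparse, since 1 library above 0 beside 3 at 0 sets the measure at its maximum, and the genes were chosen for low CTRL levels, so the number is a description only. CTRL replicate 2 was that library for LCTL (10.93 TPM, the others 0 to 0.13), CDH6 (7.01 TPM, the others 0.21 to 0.36), MCHR2 (5.48 TPM, the others 0) and SLCO1A2 (2.81 TPM, the others 0 to 0.21). These levels stand on 3, 6, 2 and 2.16 counts. MCHR2 stood at 35.2 TPM in shALDH1A1 replicate 4, against 6.97 to 8.35 TPM in the 3 other shALDH1A1 libraries, on 15 counts of the shallowest library of its group. In CPM that library did not stand apart for MCHR2, at 15 against 9.04, 15.4 and 24.5 in shALDH1A1 replicates 1 to 3. PEX5L stood at 0.1 TPM in CTRL replicate 1 and at 0 in the 3 other CTRL libraries, on 2 counts. The groups are not independent of each other, since they share libraries.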

How the results depend on the processing

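The log2 fold changes of the 8 genes kept their direction under every alternative run. All 8 were also called with median-of-ratios factors, the housekeeping scale, DESeq2, no filter and the replicate block, 7 without FAS with either limma setting, 5 with transcript rows fitted separately and 1 (PEX5L) at the thresholds of the study's methods, an absolute log2 fold change above 1 and an adjusted p under 0.001. Without 1 library the number called was 7 or 8. Genes called higher numbered 207, and 903 with median-of-ratios factors, 3230 with the housekeeping scale, 1326 with DESeq2, 1335 and 1094 with limma at pseudocounts of 1 and 0.1, 1213 with no filter, 1 at the study's thresholds, and 52 (without CTRL replicate 3) to 1715 (without CTRL replicate 2) without 1 library. Genes called lower numbered 2627, and 4192, 431, 4449, 4193, 4265, 6848 and 390 under the same alternatives in that order, and 2026 to 5996 without 1 library. Partner genes called higher numbered 3, and 10, 28, 17, 15, 15, 14 and 0 in the same order, and 0 to 18 without 1 library. Partner genes called lower numbered 15, and 32, 3, 36, 32, 34, 62 and 1, and 11 to 54 without 1 library. Of all calls, 7.3% were higher with TMM factors, 17.7% with median-of-ratios factors, 23% with DESeq2 and 88.2% on the housekeeping scale. The cause of these shifts was not tested.

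Same-numbered libraries of the groups correlated at -0.348, -0.0739, -0.172 and 0.139 in their deviations, and no shALDH1A1 library correlated best with its own number, so the numbers gave no pairing. With the replicate block 1030 genes and 14 partner genes were called higher and 2507 genes lower, and all 8 genes stayed called. With the block BAK1 was not called (-3.03, adjusted p = 0.0768 from edgeR), while KLB (4.54, adjusted p = 0.0146), CDH3 (6.34, adjusted p = 0.0077), TIGAR (3.13, adjusted p = 0.0365) and CA2 (-3.58, adjusted p = 0.0492) were. Single libraries held 0 to 57 counts of LCTL and 0 to 24.99 counts of SLC4A1, which limits the precision of each level.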
